A study of Mus musculus with 38 samples.

Results

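The replication-dependent histone genes were examined in the spleens of 38 BXD strains of mouse. Members were all probes of the non-normalized array table whose gene symbol begins with H1f, H2ac, H2bc, H3c or H4c, together with probes whose older name begins with Hist1h, Hist2h or Hist3h. The rule found 54 probes for 49 genes among 34492 probes on the array (17411 genes with a symbol), 51 probes by their present symbol and 3 by an older name (H2bu2, H2bu1-ps and H2aw). A detection filter kept 42 of these probes, for 39 genes, among 17583 probes kept in all. A probe was kept where detection reached p = 0.01 or better in 3 or more arrays. By class, it kept 2 of 8 probes for the linker histone H1, 13 of 16 for H2A, 12 of 13 for H2B, 5 of 7 for H3 and 10 of 10 for H4.

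BXD strains are recombinant inbred lines that carry fixed mosaics of the C57BL/6 and DBA/2 genomes, with no transgene or treatment named in the labels. Each strain had 1 single-colour Illumina array, hybridised with RNA pooled from 2 mice of one sex aged 8 to 12 weeks, so a strain is 1 pool and p-values measure the spread between pools, technical error included. The pools of 35 strains were labelled male and those of BXD18, BXD38 and BXD96 female. For 34 strains the authors deposited flow cytometry traits on a natural log scale: LN T:B (ratio of T to B cells), LN CD4:CD8 (ratio of CD4+ to CD8+ cells) and LN MHC Med (the median level of MHC class II among B cells). Per the labels, flow cytometry used an average of 4 mice per sex, whereas each array is a pool of 2 mice of one sex. No trait values were used for the strains BXD70, BXD75, BXD83 and BXD87. All 12 measured genes of the T cell marker list and 12 of 13 of the B cell list were detected on every array.

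Replication-dependent histone genes supply the core histones H2A, H2B, H3 and H4 and the linker histone H1 that package newly made DNA, and cells transcribe them mainly in S phase. Most lie in multi-gene clusters without introns, and their mRNAs end in a stem-loop that is processed with the help of SLBP and the U7 snRNP instead of a poly(A) tail. Spleen of the mouse holds dividing lymphocytes and, unlike that of adult humans, much erythropoiesis, in which erythroblasts divide while they mature. The labelling kit named in the labels amplifies RNA from an oligo(dT) primer, and how much of each signal comes from polyadenylated histone transcripts was not tested.

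In the RefSeq gene table of assembly GRCm38.p6, 42 of the 54 probes belong to 38 genes on chromosome 13. The chromosome 13 genes fall into 2 stretches, one with 15 probes, all of which were kept, and one with 27 probes, of which 20 were kept. A further 7 probes (6 kept) belong to the smaller cluster on chromosome 3, 3 probes (1 kept) to chromosome 11, and 1 each to chromosomes 6 (H1f8) and 15 (H1f7), neither kept. Of the 54 probes, 34 were detected on every array and 9 on none. Those 9 were H1f3, H1f4, H1f6, H1f7, H1f8, H2ac1, H2bu1-ps, H3c8 and 1 of the 2 probes of H3c15. The germline variants H1f6, H1f7, H1f8 and H2ac1, which are known from testis and oocyte, are among these 9. The fifth germline gene, H2bc1, was detected on 29 arrays at 5.20 to 6.33 on the log2 intensity scale used throughout. H1f1 and H2aw were detected on 2 arrays each and the second probe of H2ac6 on 1.

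Promoters are shown because H2A and H2B genes often lie head to head and share 1 promoter region, which may bear on which members move together. RefSeq promoter windows (250 bases before to 50 after the gene start, GRCm38.p6) were found for 35 of the 39 kept genes. Both strands were searched for 3 motifs, none of which lies within another: CCAAT, which reads ATTGG on the other strand, the TATA box written as TATAAA, which reads TTTATA there, and the octamer known from H2B promoters. The octamer was searched as ATTTGCAT, which reads ATGCAAAT on the other strand. CCAAT was present in 30 of 35 windows, against 37.4% of 32817 windows in the table, and it was present in 3 of 8 windows of class H4. TATAAA was present in 24 of 35 windows against 13.6% of the table. The octamer was present in 4 of 9 H2B windows and 5 of 12 H2A windows, in none of the 2 H1, 4 H3 and 8 H4 windows, and in 1.74% of the table. The H2A and H2B counts are not independent, because 1 octamer can lie in both windows of a head-to-head pair. H2ac12 with H2bc12 and H2ac8 with H2bc8 share 277 and 279 bases, and each of these windows holds an octamer. The 3 windows below are those of H2bc12 (chr13:22035571-22035870, plus strand), whose window shares 277 bases with that of H2ac12 on the other strand, of H4c9 (chr13:22041313-22041612, minus strand) and of H2ac18 (chr3:96245247-96245546, plus strand), a member that did not follow the others. They are written 5′ to 3′ with the searched motifs in capitals.
H2bc12: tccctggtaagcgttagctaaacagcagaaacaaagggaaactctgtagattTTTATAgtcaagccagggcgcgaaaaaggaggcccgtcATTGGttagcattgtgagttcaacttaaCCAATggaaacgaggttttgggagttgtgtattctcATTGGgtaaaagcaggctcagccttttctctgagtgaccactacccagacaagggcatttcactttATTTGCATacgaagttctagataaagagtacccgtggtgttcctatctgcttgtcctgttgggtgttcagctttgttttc
H4c9: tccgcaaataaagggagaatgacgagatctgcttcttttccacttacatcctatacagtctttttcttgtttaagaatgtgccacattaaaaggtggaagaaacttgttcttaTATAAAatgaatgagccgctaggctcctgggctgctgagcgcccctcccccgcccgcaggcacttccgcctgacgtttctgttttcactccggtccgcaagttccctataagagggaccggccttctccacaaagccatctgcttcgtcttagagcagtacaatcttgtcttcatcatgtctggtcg
H2ac18: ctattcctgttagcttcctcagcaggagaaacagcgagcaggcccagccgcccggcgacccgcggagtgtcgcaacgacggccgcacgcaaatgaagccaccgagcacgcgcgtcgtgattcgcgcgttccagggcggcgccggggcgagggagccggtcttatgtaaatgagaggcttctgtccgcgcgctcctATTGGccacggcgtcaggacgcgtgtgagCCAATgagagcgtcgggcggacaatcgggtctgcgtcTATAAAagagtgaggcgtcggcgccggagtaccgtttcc
A match is a description of these letters and not evidence of binding.

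One array stood apart by its outlying probes, though not by its median r to the other arrays. That r was 0.956 for BXD12, against 0.943 for the lowest array (BXD19) and 0.968 for the highest. On the array of BXD12, 543 of the 17583 probes lay more than 3 SD from their mean, 444 of them below it, against 346 for the next array (BXD98). The mean z value of 72 respiratory chain subunit genes, chosen after the array had been seen to stand apart, was -2.85 in BXD12, and the other 37 arrays lay between -0.76 (BXD98) and 0.71 (BXD69). BXD12 was rank 37 of 38 on the proliferation score (1.44), and it was the lowest array for every H4 probe except H4c3, H4c4 and H4c14. Results are therefore given with and without it. What sets this array apart was not tested.

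The H2A probes varied over a 2.42-fold to 6.53-fold range across arrays. H2ac12, a gene of the first stretch, lay at 12.15 in BXD48, had a median of 13.20 and reached 14.25 in BXD24. H2ac13 ran from 14.13 (BXD98) through a median of 15.00 to 15.45 (BXD61). H2ac10, of the second stretch, ran from 14.27 (BXD48) through 15.08 to 15.74 (BXD24). On chromosome 3, H2ac20 ran from 12.63 (BXD98) through 13.80 to 14.57 (BXD24), and H2ac19 from 12.93 (BXD98) through 14.01 to 14.89 (BXD24). The same 3 arrays, BXD98, BXD48 and BXD68, supplied the lowest value of all kept H2A probes other than H2ac15 (BXD50) and H2ac18 (BXD12). H2ac18 ran differently, from 7.89 in BXD12 through 9.44 to 10.60 in BXD19. The 2 probes of H2ac6 disagreed: the first was detected on every array (14.10 to 15.87) and the second on 1 (4.51 to 5.80). Raw intensity of the first reached 63400, and whether such signals were limited by the range of the scanner was not tested.

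Among the H2B probes, H2bc12 lay at 8.44 in BXD12, had a median of 9.35 and reached 10.52 in BXD24. H2bc7, which has 2 probes, ran from 9.05 (BXD12) through 10.38 to 11.54 (BXD24) on the first and from 8.99 (BXD12) through 9.96 to 10.95 (BXD24) on the second. H2bc4 ran from 9.60 (BXD12) through 10.71 to 11.45 (BXD33). H2bc21 of chromosome 3 ran from 8.05 (BXD68) through 8.55 to 9.58 (BXD24). The highest array was BXD24 or BXD33 for 10 of the 12 kept H2B probes, the exceptions being H2bc1 (BXD70) and H2bu2 on chromosome 11 (BXD11). H2bc3 was detected on 6 arrays and reached 6.94 in BXD33.

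All 5 kept H3 probes were highest in BXD24. H3c4 ran from 7.41 (BXD98) through a median of 8.41 to 9.79, and H3c11 from 9.21 (BXD18) through 9.82 to 10.83. H3c15 on chromosome 3 ran from 8.81 (BXD18) through 9.49 to 10.53 on its second probe, while its first probe was detected on no array. The H4 probes had fold ranges of 4.91 to 10.9 across arrays. H4c9 ran from 7.27 (BXD12) through 8.93 to 10.45 (BXD33) on its first probe and from 7.62 (BXD12) through 9.26 to 10.65 (BXD33) on its second. H4c3, detected on 29 arrays, ran from 4.83 (BXD68) through 6.68 to 8.28 (BXD24), and H4c14 of chromosome 3 from 5.50 (BXD68) through 6.53 to 8.38 (BXD24). Of the 2 kept linker histone probes, H1f2 ran from 11.20 (BXD18) through 12.07 to 13.22 (BXD24). H1f5 was detected on 8 arrays and reached 6.72 in BXD24.

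By array, the mean z value of the 42 kept probes was highest in BXD24 (2.00) and BXD33 (1.81) and lowest in BXD98 (-1.65), BXD68 (-1.62) and BXD12 (-1.45). In BXD24 and BXD33 each of the classes H2A, H2B, H3 and H4 had a mean z of at least 1.41. The classes separated on other arrays. In BXD48 the mean was -1.66 for H2A and 0.33 for H4, and in BXD50 it was -1.06 for H2A and 0.38 for H4. In BXD87 the order was turned, with 0.97 for H2A and -0.43 for H4, and in BXD18 the mean was 0.24 for H2A and -1.39 for H3. In BXD12 it was -0.79 for H2A and -2.12 for H4.

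**Figure D1:**
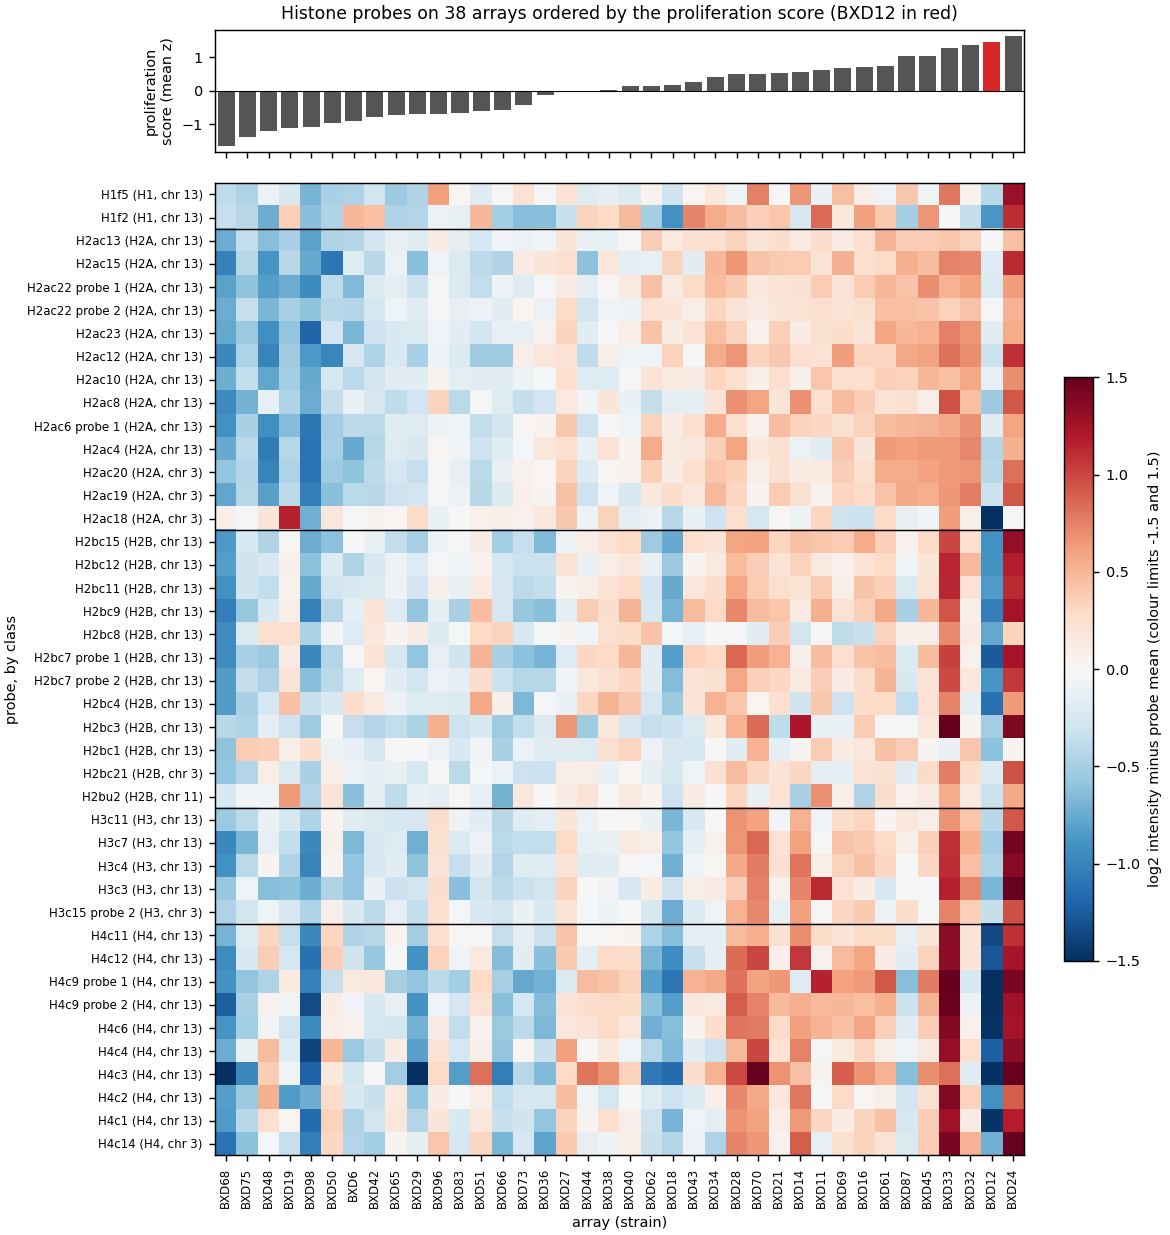
Log2 intensity of each of the 42 kept histone probes minus its mean over arrays (colour, red above and blue below), with rows grouped by class and columns the 38 arrays ordered by the proliferation score, which the bars above give as a mean z value. BXD24 and BXD33 are red in nearly every row, BXD68 and BXD98 are blue, and BXD12 (red bar, score 1.44) is blue in most rows.

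The relation to proliferation was measured against a score, the mean z value of 43 measured genes of 58 on lists of S phase genes (such as Mcm5, a subunit of the replicative helicase, and Tyms, thymidylate synthase) and mitosis genes (such as Birc5 and Plk1). No histone gene is in the score. It ran from -1.67 in BXD68 to 1.64 in BXD24. In limma's test over 38 arrays, 34 of the 42 kept probes rose with the score and 0 fell at an adjusted p under 0.05. Over all 17583 probes 10.2% rose and 9.66% fell. Slopes were positive for 41 of 42, against 42.6% of all probes. The median slope of the histone probes was 0.30 on the log2 scale per SD of the score, against -0.016 for all probes. Without BXD12, 38 of 42 rose (10.4% of all probes) and the median slope was 0.34. Without BXD68 and BXD24, the arrays farthest from the median score, 24 rose and the median slope was 0.22. The share of all probes that rose in that fit is not given here.

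Of the 13 kept H2A probes 12 rose. H2ac12 had a slope of 0.45 ± 0.05 (SE, n = 38; limma adjusted p = 2.73e-10) and H2ac15 one of 0.43 ± 0.05 (adjusted p = 2.20e-09). The smallest p of all members was that of H2ac22 on its second probe, with a slope of 0.29 ± 0.03 (adjusted p = 4.71e-11), and its first probe had 0.38 ± 0.04 (adjusted p = 6.19e-11). H2ac10 (0.32 ± 0.03), H2ac13 (0.30 ± 0.03), H2ac6 (0.39 ± 0.04), H2ac23 (0.38 ± 0.04), H2ac4 (0.37 ± 0.05) and H2ac8 (0.32 ± 0.05) rose on chromosome 13, each with a limma adjusted p of 5.22e-06 or smaller. On chromosome 3, H2ac19 and H2ac20 both had 0.38 ± 0.04, with adjusted p of 1.48e-09 and 6.96e-09. H2ac18 did not pass, with a slope of -0.10 ± 0.06 (adjusted p = 0.289) and, without BXD12, one of -0.03 ± 0.05 (adjusted p = 0.727).

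All 5 kept H3 probes rose. H3c7 had a slope of 0.38 ± 0.06 (limma adjusted p = 6.19e-06), H3c4 of 0.35 ± 0.06 and H3c3 of 0.36 ± 0.07. H3c11 and the second probe of H3c15 both had 0.22 ± 0.05. Of 12 kept H2B probes 8 rose. H2bc15 had a slope of 0.31 ± 0.07 (adjusted p = 0.000501), H2bc12 of 0.25 ± 0.06 (0.000788) and H2bc21 of 0.21 ± 0.04 (0.000139), while H2bc11, H2bc9, H2bc3 and both probes of H2bc7 lay between 0.24 and 0.30. The 4 H2B probes that did not pass were H2bc4 (0.11 ± 0.07), H2bu2 (0.11 ± 0.05), H2bc8 (0.07 ± 0.05) and the germline H2bc1 (0.05 ± 0.05).

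Of 10 H4 probes 8 rose, with slopes from 0.21 ± 0.08 (H4c11, adjusted p = 0.0457) to 0.38 ± 0.13 (H4c3, adjusted p = 0.0277). H4c14 had 0.35 ± 0.08 (adjusted p = 0.0015) and H4c9 had 0.34 ± 0.11 and 0.32 ± 0.09 on its 2 probes. H4c1 and H4c4 did not pass in limma's test (0.22 ± 0.08, adjusted p = 0.0501, and 0.23 ± 0.09, adjusted p = 0.0541). Without BXD12 all 10 rose, with H4c1 at 0.31 ± 0.07 (adjusted p = 0.00059) and H4c4 at 0.31 ± 0.08 (adjusted p = 0.00331). Of the linker histones, H1f5 rose (0.24 ± 0.06, adjusted p = 0.00134). H1f2 had 0.17 ± 0.08 (adjusted p = 0.153), and without BXD12 it rose (0.22 ± 0.08, adjusted p = 0.0404), as did H2bc4 (0.17 ± 0.06, adjusted p = 0.0388). By position, 29 of 35 kept probes on chromosome 13 and 5 of 6 on chromosome 3 rose, and the 1 on chromosome 11 did not pass.

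**Figure D2:**
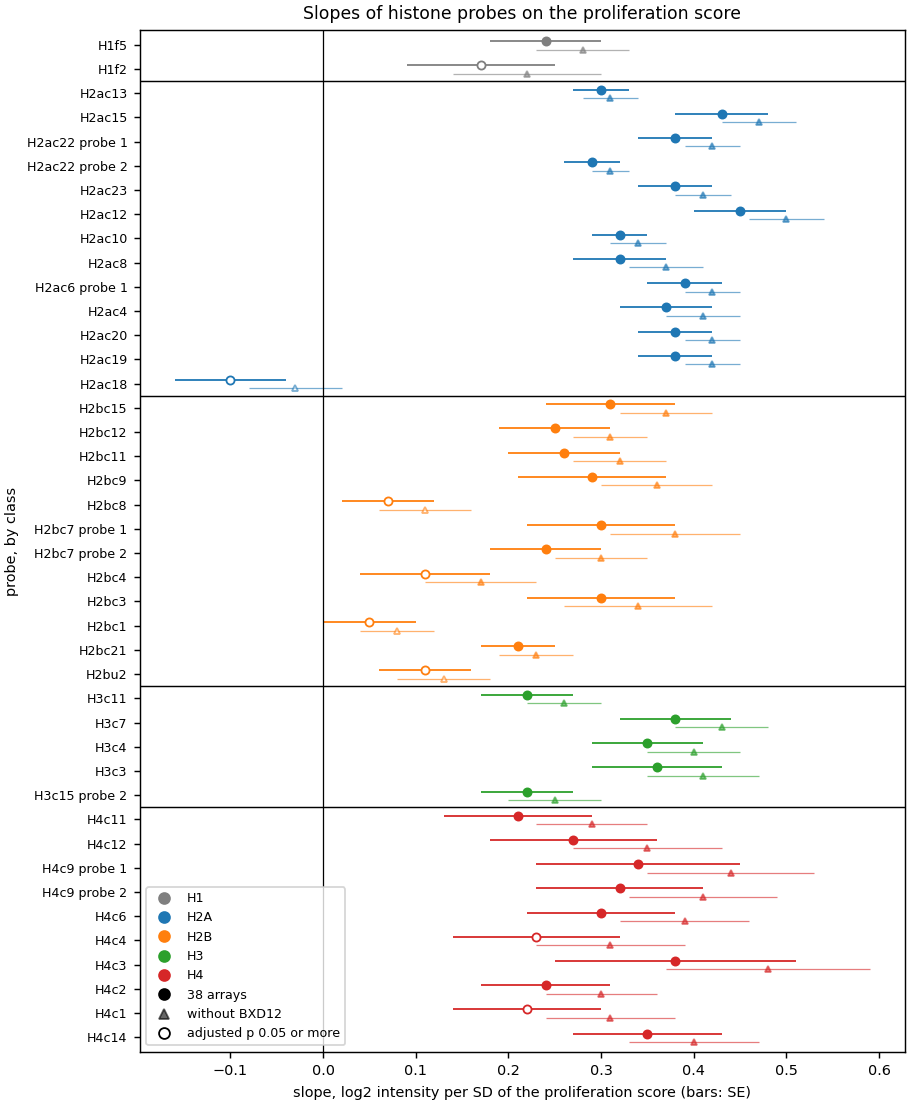
Slope of each kept histone probe on the proliferation score in log2 intensity per SD of the score (points, bars are SE), for 38 arrays (circles) and without BXD12 (triangles), coloured by class, with open symbols where the limma adjusted p was 0.05 or more. All slopes but that of H2ac18 lie above 0, and leaving out BXD12 moves each of them to the right.

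The size of a slope depended on the background correction for some probes. With detection p-values as deposited the slopes of H2ac8, H2bc21 and H3c3 were 0.11, 0.11 and 0.02, and in the authors' processed table those of H3c7, H3c4 and H3c3 were 0.14, 0.21 and 0.05, each still past the threshold in limma's test. H3c7 and H3c4 did not pass the detection filter with p-values as deposited and were not fitted there. The count that rose was 36 in the authors' table and 36 with no background correction, with no share of all probes beside it. The share of variance tied to the score (squared Pearson correlation) differed in size between classes, a difference that was not tested. Its median was 0.714 for H2A probes, 0.428 for H3, 0.277 for H2B and 0.198 for H4, against 0.0456 over all probes. Without BXD12 these medians were 0.821, 0.576, 0.465 and 0.377, against 0.0505.

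**Figure D3:**
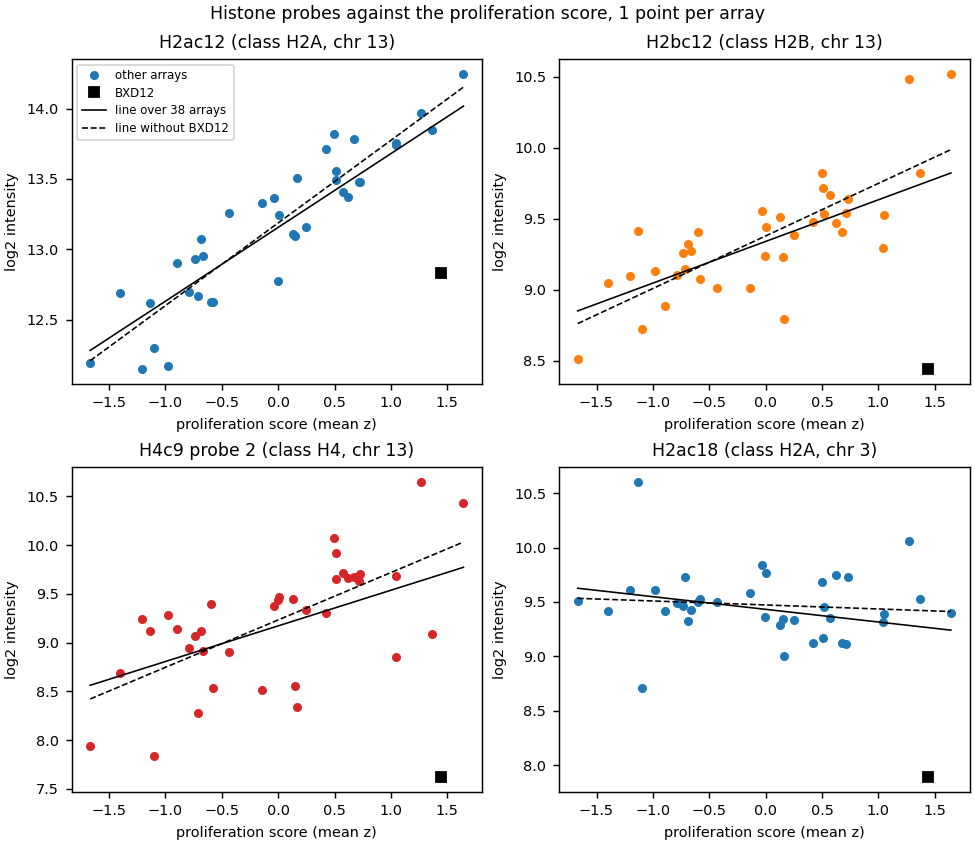
Log2 intensity of H2ac12, H2bc12, the second probe of H4c9 and H2ac18 against the proliferation score (mean z), 1 point per array, with least-squares lines over 38 arrays (solid) and without BXD12 (dashed). BXD12 (black square) lies below both lines in all 4 panels, and H2ac18 shows a flat line without it.

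The proliferation score moved with cell type markers, and these values stand beside the relation above. Over the 38 arrays it correlated with the score of 26 measured erythroid genes of 33 (r = 0.941, rho = 0.953, both permutation p = 1.0e-05, the smallest that the 100000 permutations can give, adjusted over 13 relations 4.3e-05). Without BXD68 and BXD24 that r was 0.928, and without BXD12 0.937. The mean log2 level of the 26 erythroid genes ran from 8.77 to 12.24 across arrays, and 24 of them were detected on every array. The score ran against the B cell list (r = -0.656, permutation p = 3.0e-05, adjusted 9.7e-05; rho = -0.655, permutation p = 4.0e-05, adjusted 0.00013; r without the 2 farthest arrays -0.614, without BXD12 -0.69). It also ran against the T cell list (r = -0.525, permutation p = 0.00067, adjusted 0.00174; rho = -0.476, permutation p = 0.0026, adjusted 0.00563; -0.551 without the 2 farthest, -0.473 without BXD12). It rose with the neutrophil list (r = 0.41, permutation p = 0.0104, adjusted 0.0225; rho = 0.369, permutation p = 0.0231, adjusted 0.043; r 0.3 without the 2 farthest, 0.453 without BXD12). With the respiratory chain list r was 0.131 (permutation p = 0.457, adjusted 0.484; 0.0477 without the 2 farthest) and 0.641 without BXD12, and rho was 0.561 (permutation p = 0.00035, adjusted 0.00091). As a description, the mean z of the 35 chromosome 13 probes had r of 0.672 with the erythroid list, -0.631 with B cells, 0.64 with the respiratory chain and 0.424 with neutrophils, and without BXD12 0.812, -0.654, 0.718 and 0.419. The r of the proliferation score with the germinal centre list was -0.267 (permutation p = 0.105, adjusted 0.151; rho -0.246, permutation p = 0.135; -0.362 without the 2 farthest). In RNA from whole spleen, fewer cells of a type and less RNA per cell cannot be told apart.

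With the erythroid score as the predictor in place of the proliferation score, 30 of 42 histone probes rose in limma's test (9.01% of all probes) and 0 fell (7.72%), and without BXD12 36 rose (9.04%). The 30 were 1 of 2 H1, 12 of 13 H2A, 8 of 12 H2B, 5 of 5 H3 and 4 of 10 H4 probes. In the proliferation fit 8 of 10 H4 probes rose, and the other classes had the same counts. All 10 H4 probes had an unadjusted p under 0.05 in both limma fits, and the difference between fits was not tested. The mean z of the H2A probes had r of 0.863 with the erythroid score and 0.847 with the proliferation score. For H4 these were 0.432 and 0.485. With both scores in the model, 0 of 42 passed for the proliferation score (0.882% of all probes rose), 7 had an unadjusted p under 0.05 with positive slope (5.62% of all probes). The median slope over the members was 0.29, but the classes parted, a difference that was not tested. The median slope of the 13 H2A probes went from 0.38 to 0.07, with H2ac23 at 0.03 ± 0.10 and H2ac13 at 0.04 ± 0.08, while H2ac15, H2ac8 and H2ac12 had 0.40 ± 0.14, 0.40 ± 0.15 and 0.35 ± 0.14. The medians were 0.30 for H2B, 0.35 for H3 and 0.39 for H4, against 0.25, 0.35 and 0.29 without the covariate, with larger errors (H4c12 at 0.41 ± 0.28). Without BXD12, 1 of 42 passed (0.944% of all probes), H2ac12 at 0.40 ± 0.10 (limma adjusted p = 0.0463), and 24 had an unadjusted p under 0.05 with positive slope (6.02% of all probes). The class medians were then 0.10 for H2A, 0.35 for H2B, 0.40 for H3 and 0.46 for H4. The parts of proliferating erythroid and other cells in the histone signal therefore cannot be told apart in these arrays. With the respiratory chain score in the model, 35 rose (10.3% of all probes) and H2ac18 fell (10.3%), with a limma adjusted p of 0.0473. Without BXD12 that model called 25 up (6.38% of all probes) and 0 down, so H2ac18 no longer passed.

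Other genes of the pathway were taken from 3 lists and read in the same fit. Over all probes 10.2% rose and 9.66% fell in this fit, and 1 call among so few genes says little against these shares. Of 13 measured histone chaperone genes 6 rose and 1 fell. Chaf1a (0.60 ± 0.03, limma adjusted p = 2.08e-17) and Chaf1b (0.56 ± 0.04), subunits of the assembly factor that loads H3 and H4 on new DNA, rose with the score. So did Asf1b (0.58 ± 0.05), which hands H3 and H4 to it, and Nasp (0.29 ± 0.02), which keeps a soluble pool of H3 and H4. Hat1 and Rbbp4 also rose (0.22 ± 0.02 and 0.11 ± 0.02), and Atrx, which acts in H3.3 deposition, fell (-0.10 ± 0.03, adjusted p = 0.0391). Hira and Daxx, of the replication-independent routes, had slopes of 0.02 ± 0.03 and -0.02 ± 0.03 and did not pass. Of 5 measured genes on the list of replacement histones, 2 rose and 1 fell. The centromere histone Cenpa had 0.42 ± 0.03, H2ax 0.31 ± 0.03, and Macroh2a1 -0.14 ± 0.04 (adjusted p = 0.00356). H3f3b (0.05 ± 0.03) and H2aj (0.01 ± 0.03) did not pass. Of 8 measured genes of 16 on the list of histone mRNA processing, 2 rose: Eri1, an exonuclease that trims the histone stem-loop (0.48 ± 0.14, adjusted p = 0.00956), and the cap-binding subunit Ncbp1 (0.10 ± 0.03, adjusted p = 0.00549). Ncbp2 (0.04 ± 0.03) and Upf1 (0.03 ± 0.02) did not pass.

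Coexpression was measured over the 861 pairs of kept probes. Median Pearson r was 0.651 (range -0.0515 to 0.985), and it was -0.001 over all pairs of the 17583 probes, of which 2.32% had an r above 0.5. By a permutation test, 791 of the 861 pairs passed an adjusted p of 0.05, all with positive r. That test was not run over all pairs of the 17583 probes, so no share stands beside this count. Pairs share the same 38 arrays and are not independent of each other. Within classes the median r was 0.917 for H2A (78 pairs), 0.917 for H3 (10 pairs), 0.895 for H4 (45 pairs) and 0.631 for H2B (66 pairs). Between classes it was 0.84 for H3 with H4, 0.779 for H2B with H4, 0.763 for H2B with H3, 0.689 for H2A with H3, 0.577 for H2A with H2B and 0.529 for H2A with H4. For 32 of the 42 probes the most similar other member was of the same class.

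Sharing chromosome 13 went with a smaller difference in r than sharing a class, a contrast that was not tested. The 595 pairs within chromosome 13 had a median r of 0.689 (0.682 without BXD12). It was 0.686 for 295 pairs of the same stretch and 0.697 for 300 pairs of different stretches. Pairs of chromosome 13 with chromosome 3 had 0.635 (210 pairs). Pairs of the same class on different chromosomes had 0.802 (64 pairs), against 0.632 for pairs of different class that are both on chromosome 13 (462 pairs) and 0.882 for pairs of the same class on chromosome 13 (133 pairs). Without BXD12 these 3 medians were 0.809, 0.639 and 0.877. Genes of one class encode near-identical proteins, and no probe sequences were used here, so signal shared between copies by cross-hybridisation and true coexpression cannot be told apart.

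The following pairs were chosen after their values were seen. H2ac12 and H2ac15, of the same stretch, had r = 0.985 and rho = 0.981. H3c11 on chromosome 13 and the second probe of H3c15 on chromosome 3 had r = 0.972 and rho = 0.953. Of H4c6 and the second probe of H4c9, on different stretches, r was 0.978 and rho 0.971. H2ac12 and H2bc12, which share their promoter region (the sequence shown for H2bc12), had r = 0.709 and rho = 0.701, and the second such pair, H2ac15 and H2bc15, had r = 0.705 and rho = 0.693. Each of these 5 pairs had a permutation p of 1.0e-05 for r and for rho, the smallest the permutations can give (adjusted over 861 pairs 2.1e-05 and 2.3e-05). Without the 2 arrays farthest from the median of the first member, r was 0.982, 0.96, 0.975, 0.671 and 0.636 in the order given, and without BXD12 it was 0.986, 0.971, 0.974, 0.723 and 0.72. The third head-to-head pair, H2ac8 and H2bc8, had r = 0.387 (permutation p = 0.0167, adjusted 0.0195), which was 0.246 without the 2 farthest arrays and 0.341 without BXD12, and a rho of 0.182 (adjusted permutation p = 0.289). That relation rests on few arrays. For the first 2 head-to-head pairs, members that do not share a promoter region were as close. The r was 0.717 for H2ac12 with H2bc15 and 0.702 for H2ac15 with H2bc12. Pairs of one class were not always close: H2ac18 and the second probe of H2ac22 had the lowest r of all pairs (-0.0515).

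Pairs of probes for the same gene had r of 0.976 (H2bc7), 0.952 (H2ac22) and 0.903 (H4c9), with rho of 0.967, 0.935 and 0.926 and each permutation p at 1.0e-05 (adjusted 2.1e-05 for r). Without the 2 farthest arrays these r were 0.969, 0.941 and 0.87. The most similar member to the first probe of H4c9 was not its partner but the first probe of H2bc7 (nearest r = 0.948). H2ac8 was nearer to H3c7 (0.902) than to the H2A probes, its median r to its own class being 0.721. H2ac18 had a median r of 0.017 to its own class, with its nearest member H2bc8 at 0.574. H2bc1, H2bc8 and H2bu2 had medians of 0.286, 0.406 and 0.431 over all other members. H1f2 was nearest to the first probe of H4c9 (0.875) and H1f5 to the second of H3c15 (0.818), while r between the 2 H1 probes was 0.292.

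**Figure D4:**
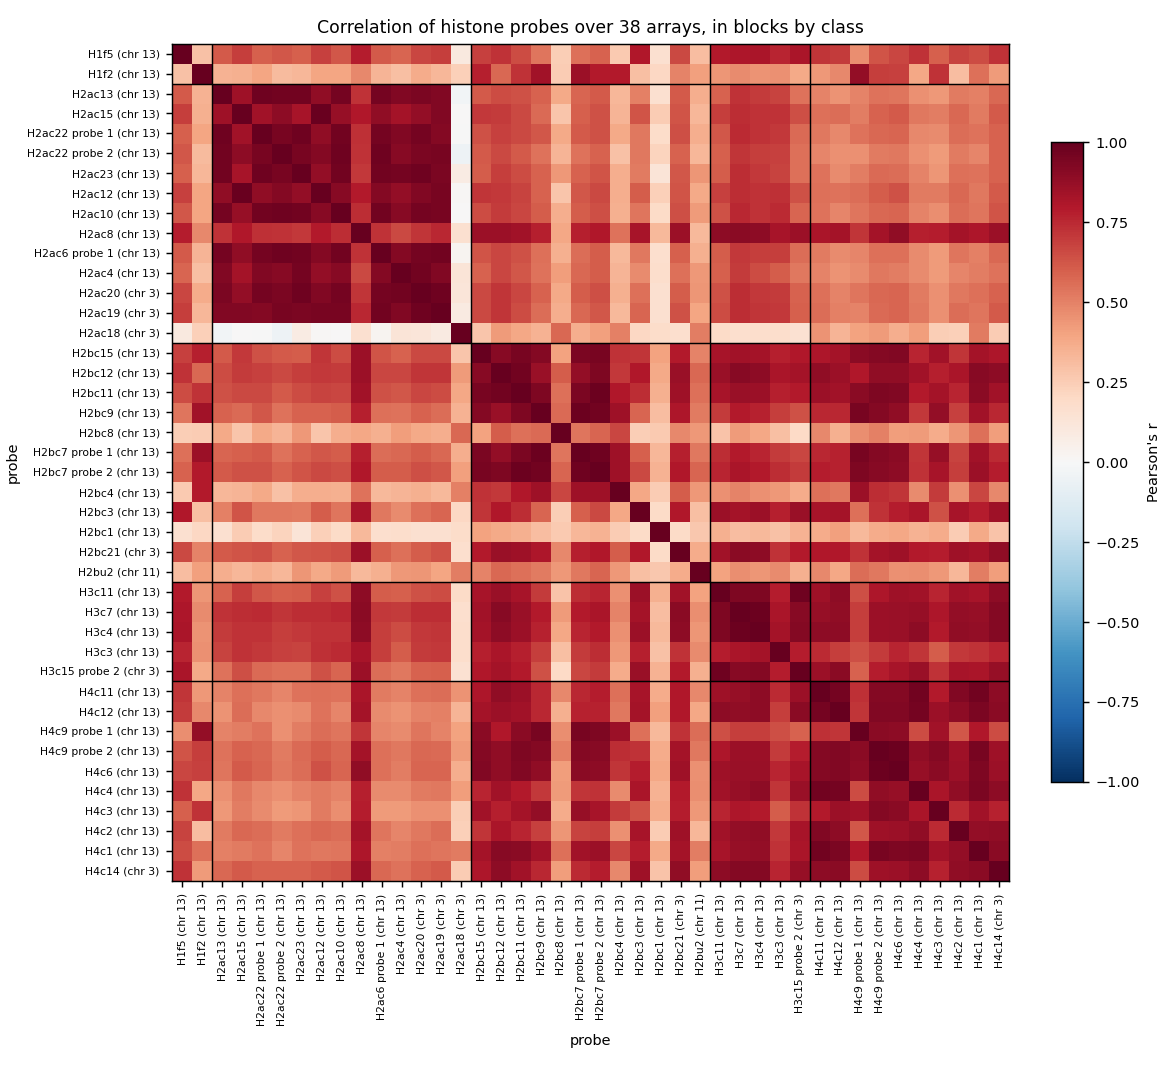
Pearson's r over 38 arrays for every pair of the 42 kept histone probes (colour scale from -1 to 1), with black lines between the classes H1, H2A, H2B, H3 and H4. The H2A block is dark on its own apart from H2ac8 and H2ac18, the H2B, H3 and H4 blocks run into each other, and H2ac18, H2bc1, H2bc8 and H2bu2 form pale stripes.

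After the proliferation score was regressed out, the median r of all pairs was 0.446, and without BXD12 0.251. The classes then differed further. Within H3 and H4 the median stayed at 0.852 and 0.81 without BXD12, and H3 with H4 at 0.734. It was 0.534 within H2A and -0.0347 for H2A with H4. With BXD12 these medians were 0.878, 0.867, 0.798, 0.727 and 0.321 in the order given, so the classes lay closer. With the respiratory chain score also regressed out, without BXD12, H3 with H4 had 0.692 and H2A with H4 -0.116.

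Among 17541 other probes, the named genes with the pattern most like the mean z of the 35 kept chromosome 13 probes were found by Pearson's r over 38 arrays. They were chosen for this likeness, and no test is given. They were Cmc2 (r = 0.883, rho = 0.887), a gene of cytochrome oxidase assembly, Dpy30 (0.862), a subunit of H3 lysine methyltransferase complexes, Bola3 (0.861), Cenpw (0.859), of the centromere, Rnaseh2c (0.845), Ssna1 (0.83), Blvrb (0.829), Spc24 (0.829), of the outer kinetochore, Txnrd2 (0.814) and Psmc3ip (0.808). The median over all other probes was -0.0335. Without BXD12 the 10 nearest were Birc5 (0.894), Tyms (0.888), Spc24 (0.885), Pole3 (0.882), Cdkn2c (0.88), Uros (0.879), Rrm2 (0.878), Rnaseh2b (0.876), Cdca8 (0.874) and Depdc1b (0.872). The 2 sets share 1 gene, Spc24, so which genes fall in the first 10 turns on that array. Some moves were small. Without BXD12, Cmc2 had r = 0.871 (rank 11), and Dpy30, Bola3 and Cenpw had 0.854, 0.857 and 0.854. With BXD12, Pole3, Rnaseh2b and Tyms were at ranks 12, 14 and 15. Larger moves included those of Cdkn2c, from 0.681 (rank 179) with BXD12, and Uros, from 0.726 (rank 79).

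Other genes that lie between the outermost histone genes of chromosome 13 did not run with them as a group. There were 8 such genes with a kept probe, with r to the chromosome 13 mean from -0.0942 to 0.498 and a median of 0.0338. In the proliferation fit 1 of 8 rose, a share close to the 10.2% of all probes. This was Btn1a1, a butyrophilin, at 0.36 ± 0.05 (limma adjusted p = 1.17e-06), with levels from 4.97 through a median of 5.50 to 7.20. Hfe, the iron regulator mutated in haemochromatosis, had 0.10 ± 0.06 (adjusted p = 0.274). The r to the chromosome 13 mean was 0.498 for Hfe and 0.378 for Btn1a1, and without BXD12 the order was turned, at 0.468 and 0.541. Prss16 (0.04 ± 0.04), Zfp184 (-0.03 ± 0.04), Zfp322a (-0.01 ± 0.05), Trim38 (0.02 ± 0.07), Vmn1r216 (0.03 ± 0.04) and Vmn1r-ps103 (-0.04 ± 0.06) did not pass. Several of the neighbours were dim. Median levels were 5.25 for Zfp184, 5.37 for Vmn1r216, 5.67 for Vmn1r-ps103 and 5.68 for Prss16. They were 6.77 for Trim38, 6.95 for Zfp322a and 8.38 for Hfe. A low r of a probe near background says little about its gene.

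The series sets spleen expression against flow cytometry traits, which were fitted over 34 strains. For LN CD4:CD8, 0 of 42 histone probes passed an adjusted p of 0.05 in limma's test, as did 0% of all probes. Slopes were positive for 41 of 42 (52.1% of all probes), with a median of 0.17 log2 per SD of the trait against 0.003, and 24 had an unadjusted p under 0.05 with positive slope, against 4.97% of all probes. These 24 were 10 of 10 H4, 9 of 12 H2B, 4 of 5 H3 and 1 of 13 H2A probes (H2ac8). H4c3 had a slope of 0.46 ± 0.12, H2bc9 of 0.30 ± 0.08 and the second probe of H4c9 of 0.33 ± 0.10 (n = 34, each with a limma adjusted p of 0.436, the smallest among the members). The slope of H4c3 was 0.04 with detection p-values as deposited. With the proliferation score in the model 14 had an unadjusted p under 0.05 with positive slope (4.3% of all probes), and without BXD12 24 did (5.4%). The lowest LN CD4:CD8 values were those of BXD98 (-0.007) and BXD68 (0.005), which also had low histone values. Without these 2 strains, 7 of 42 had an unadjusted p under 0.05 with positive slope (1.86% of all probes), and the median slope was 0.12.

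For LN T:B, 0 of 42 passed (0.148% of all probes in either direction). Slopes were positive for 41 (48.7% of all probes), with a median of 0.11. An unadjusted p under 0.05 with positive slope was found for 2 (4.75% of all probes), H2ac20 (0.16 ± 0.08) and H2ac23 (0.16 ± 0.07), whose slopes were 0.09 and 0.07 without BXD98 and BXD68. The smallest limma adjusted p was 0.375. For LN MHC Med, 0 of 42 passed (0.233% of all probes). Slopes were positive for 23 (47.6% of all probes) and negative for 19. An unadjusted p under 0.05 was found for 0 in either direction, against 983 of all 17583 probes (2.1% of all probes had one with positive slope). The smallest limma adjusted p was 0.917.

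**Figure D5:**
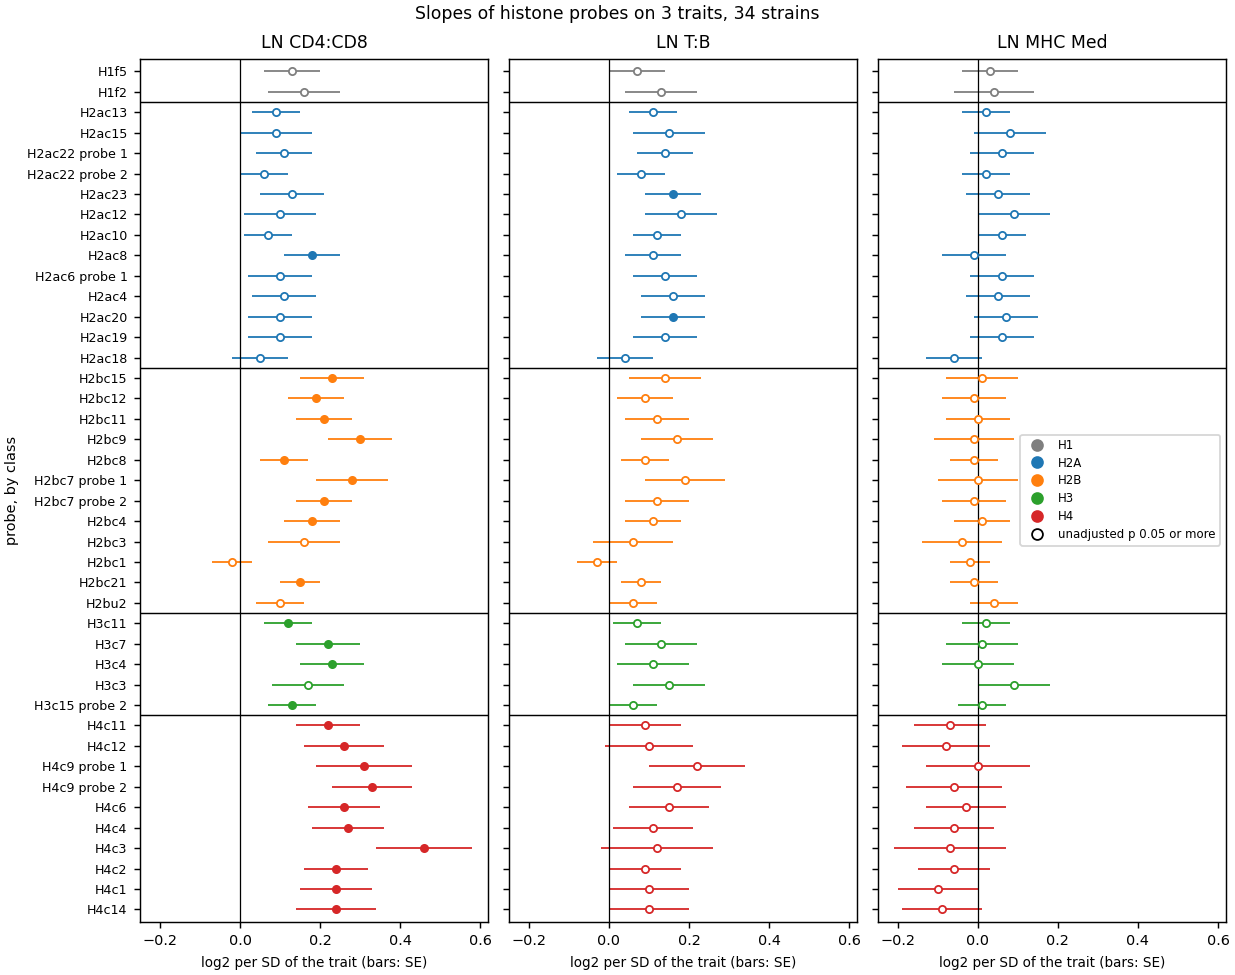
Slopes of the 42 kept histone probes on LN CD4:CD8, LN T:B and LN MHC Med over 34 strains in log2 intensity per SD of the trait (points, bars are SE), coloured by class, with filled points where the unadjusted p was under 0.05. No point passed after adjustment. H4 and H2B points lie to the right for LN CD4:CD8, and points lie on both sides of 0 for LN MHC Med.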

How the data were processed

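Spleen RNA was labelled with an oligo(dT) amplification kit and hybridised to Illumina Mouse-6 v1.1 arrays, per the labels. The table deposited by the authors holds, per the file headers, intensity values of each probe without normalization between arrays, beside detection p-values. The authors' processed table is on a log2 scale, with lumi named in the submitters' processing notes, and was used only as an alternative. Trait values deposited by the authors are natural log values, per the labels.

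The deposited detection p-value was 0.01 or more for 18836 of the 231278 measurements brighter than 500 intensity units, and H2bc4, at a median intensity of 1850, was detected by them on 0 arrays. Detection p-values were therefore smoothed within each array (running median, window of 201 probes ranked by brightness). Background correction and quantile normalization used the neqc function (offset 16; limma 3.58.1, R 4.3.3). The background SD was then 9.90 to 14.6 across arrays, against 236 to 582 with the p-values as deposited. Arrays had 13791 to 15732 probes detected, and the number of arrays limits the precision.

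Slopes were fitted with lmFit and eBayes over all 17583 probes, two-sided, with Benjamini-Hochberg adjustment over all of them and a threshold of 0.05. Scores are means of z values over a list, 1 probe per gene with the highest mean. Correlations were tested in Python with 100000 permutations. The scripts were tested on simulated data. Gene symbols came from GEO's platform annotation (20256 probes with 1 symbol, 9 with several, 14227 with none), and 20213 entrez identifiers were found in the RefSeq table of GRCm38.p6. The rule for named genes took the called histone probes (the 20 of smallest p), up to 4 genes per pathway list by p, the 10 nearest genes and the chromosome 13 neighbours; other members and genes named were chosen after their values were seen. The members and lists were chosen with earlier results of these data known. Alternatives covered the background correction, the authors' table, the filter, covariates and subsets of arrays. Leaving out BXD12, leaving out BXD98 and BXD68, the respiratory chain score and the erythroid score as predictor were added after the data were seen.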

Additional observations from a re-analysis of the deposited data

How the results depend on the processing

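The count of 34 histone probes that rose with the proliferation score stayed within 1.5 times, at 24 to 38, under the alternatives run, except for 3. It was 0 with the erythroid score as a covariate (1 without BXD12), which correlates with the proliferation score, and with all arrays H2ac4 then had a slope of -0.05 (limma adjusted p = 0.935). It was 13 over the arrays with a pancreas list score at or below its median, a setting that leaves fewer arrays. The pancreas list had 20 measured genes of 23, and their mean log2 level ran from 5.41 to 15.36 across these spleen arrays. The arrays left out include BXD24 and BXD33, which had the highest mean z of the histone probes, and BXD98 and BXD68, which had the lowest. For that setting and the processing alternatives the share of all probes that rose is not given. Whether a lower count is particular to histone probes was not tested. For the 3 traits the count was 0 under every alternative run. The median r of chromosome 13 pairs was 0.689 and ranged from 0.239 to 0.722 under the alternatives run. It was 0.469 on residuals from the proliferation score (0.26 without BXD12), 0.483 on residuals from the respiratory chain score without BXD12, 0.239 on residuals from both without BXD12, and 0.474 over the arrays with a low pancreas list score, for which the cause was not tested. Elsewhere it was 0.517 or higher. Over the arrays with a low pancreas list score the median r of H2A with H4 was 0.128, against 0.529 over 38 arrays. With the detection p-values as deposited 41 members passed the filter and 34 rose. Dim probes near background (H1f5, H2bc3, H3c3 and H4c3) were detected on 6 to 29 arrays, and sizes near background turn on its correction. The slope of H3c3 on the proliferation score was 0.36 in the main fit and 0.02 with detection p-values as deposited. No paired analysis was possible because each strain has 1 array.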
